A study of Mus musculus with 6 samples.

Results

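Oxidative phosphorylation transcripts were followed in the hippocampus of Prmt9 KO and WT mice, gene by gene and by the genome that encodes them. The members were all protein-coding genes of the GENCODE M21 annotation whose symbol begins with mt-, Nduf, Uqcr, Atp5, Cox4i, Cox5, Cox6, Cox7 or Cox8, together with Sdha, Sdhb, Sdhc, Sdhd, Cyc1 and Cycs. This gave 109 genes of the 36008 in the gene table, 13 on the mitochondrial chromosome and 96 in the nucleus. Of the nuclear members, 84 encode structural subunits or cytochrome c and 8 are the Ndufaf assembly factors of complex I. The other 4 share a prefix without being counted as subunits, namely Cox7a2l, Ndufa4l2, Atp5s and a second locus annotated as Atp5o. All 109 members were listed in the table, and 108 passed the filter on low counts. The exception was Cox8c, which stayed at or below 0.0246 TPM.

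The samples were hippocampi of 3 WT and 3 KO female mice of strain B6J at 2 weeks of age. In the KO, CMV-Cre had removed the floxed exon 5 of Prmt9, the gene for an arginine methyltransferase, in the whole body, and the controls were WT littermates of the same sex. Polyadenylated RNA was read in pairs of reads, and the deposited values were kallisto's estimated counts and TPM (a level per transcript length, scaled to the same total in each mouse). Estimated counts summed to between 194098391 and 286771677 per mouse. Prmt9 itself stood at 11.8, 15.2 and 15 TPM in WT1, WT2 and WT3 and at 3.93, 4.61 and 4.67 TPM in KO1, KO2 and KO3, a log2 fold change of −1.71 ± 0.10 (SE) with an adjusted p of 0.0327 in edgeR's quasi-likelihood test. The 2 mice numbered 1 stood apart from the other 4 along the leading principal component of gene-level counts, with 67.4% of the variance. Summed markers of oligodendrocytes reached 1946 TPM in WT1 and 999 TPM in KO1 against 7822 to 11388 TPM in the other mice, with 5 of 5 markers lower in both. Excitatory neuron markers, as the labelled tissue should hold, were all above 1 TPM. They summed to 1685 and 1777 TPM in these mice and to 2700.1 to 2877 TPM in the others, with 3 of 5 lower in both. Choroid plexus markers summed to 7254 TPM in WT1 and to between 606 and 3328 TPM elsewhere. Dentate granule neuron markers summed to 57.6 and 43.9 TPM in WT1 and KO1 against 112 to 125 TPM in the others, with 3 of 3 lower in both. Endothelial markers summed to 129 and 113 TPM against 66.2 to 81.3 TPM, but only 1 of 3 was higher in both and 1 was lower in both. Blood markers were lower in the KO mouse of each number, with sums of 2422, 4022 and 5978 TPM in WT and 991, 3099.9 and 1832 TPM in KO, and 1 of the 4 had an unadjusted p below 0.05 in edgeR. The part of these cell types in the results below was not tested. Fewer cells of a type and less RNA per cell cannot be told apart in such bulk samples. Since the mice numbered 1 stood apart, the main gene-level and summed comparisons are also given without them. Comparisons between mice of the same number follow the titles, and the data did not show which mice numbered 2 and 3 belong together.

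Oxidative phosphorylation takes place in the inner mitochondrial membrane. Complexes I and II pass electrons to ubiquinone, complex III passes them through cytochrome c to complex IV, which reduces oxygen, and complex V uses the proton gradient so formed to make ATP. Complexes I, III, IV and V combine a few subunits made inside the mitochondrion with many subunits imported from the cytosol, whereas complex II is wholly nuclear. Neurons depend heavily on this pathway to restore ion gradients after activity. The mitochondrial mRNAs arise from polycistronic transcripts of both strands of a small circular genome, so that neighbouring genes can touch or overlap.

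The sequences of the mitochondrial members decided how far their values could be read singly, so they are shown first. A block of chromosome 1 between positions 24611535 and 24616197 (GRCm38, minus strand) holds 7 unprocessed pseudogenes that copy 7 of the 13 mitochondrial members. Kallisto assigns reads by shared words, and between 29.6% (mt-Co1) and 99.9% (mt-Co3) of the 31-base words of these members occur in their copy too. In mt-Co2, subunit 2 of complex IV, 651 words were shared with Gm28661, or 99.5% of its words. The pair had 0 mismatches over 681 positions, and the mitochondrial gene runs on for 3 bases, which are in capitals in the last stretch of both genes (from position 625 of each).
mt-Co2: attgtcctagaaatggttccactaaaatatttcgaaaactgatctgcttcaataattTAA
Gm28661: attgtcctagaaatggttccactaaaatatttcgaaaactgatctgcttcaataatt
The pair mt-Nd3, a complex I subunit, and Gm28438 had 1 mismatch over 345 positions, T3C counted from the first base of mt-Nd3. The first 40 bases of each are shown with this base in capitals.
mt-Nd3: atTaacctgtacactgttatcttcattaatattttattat
Gm28438: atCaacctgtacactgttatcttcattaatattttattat
Gm29216 copies the end of mt-Co1, the catalytic core of complex IV, from position 1054 to 1545. Its 6 mismatches all lie at or before position 1066, and they are in capitals in the 60 bases where the copy begins.
mt-Co1: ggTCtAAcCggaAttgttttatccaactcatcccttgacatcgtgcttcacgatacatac
Gm29216: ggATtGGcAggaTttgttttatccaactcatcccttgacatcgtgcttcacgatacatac
The remaining copies matched without a mismatch, Gm10925 to mt-Atp6 over 678 positions, Gm28437 to mt-Co3 over 783, Gm10222 to mt-Nd4l over 294 and Gm28439 to the first 876 bases of mt-Nd4. Within the mitochondrial genome, the genes of the membrane subunits of complex V overlap. The whole of mt-Atp8 (chromosome M, 7766 to 7969, plus strand) is given with the 43 bases it shares with mt-Atp6 in capitals.
mt-Atp8: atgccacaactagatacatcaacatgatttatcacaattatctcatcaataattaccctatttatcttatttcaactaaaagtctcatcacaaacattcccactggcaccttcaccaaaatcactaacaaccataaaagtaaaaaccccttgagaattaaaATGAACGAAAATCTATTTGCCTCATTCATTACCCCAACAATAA
Words of mt-Nd1, the first gene of the chromosome's coding part, were found in no other gene. The 6 members without a copy of their own on chromosome 1 shared at most 16.8% of their words, and the pseudogenes that hold the shared words of mt-Nd5, mt-Nd6, mt-Nd2 and mt-Cytb were listed at or below 0.34 TPM.

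The copies took a large and uneven part of the reads. The 7 copies together held between 3.16% and 4.84% of all TPM, 5 of them above 0. For mt-Co2 alone, the level was 8368, 6890 and 10422 TPM in WT1, WT2 and WT3 and 14719, 9797 and 9809 TPM in KO1, KO2 and KO3. Gm28661 stood at 7452, 15266 and 11670 TPM in WT and at 4575, 13509 and 14199 TPM in KO. The mouse with the highest mt-Co2 had the lowest Gm28661, and the mouse lowest in mt-Co2 had the highest Gm28661. The sum of both was 15820, 22156 and 22092 TPM in WT and 19293, 23306 and 24008 TPM in KO. Over the 4 mice numbered 2 and 3, the coefficient of variation was 17.2% for mt-Co2, 11.1% for Gm28661 and 4.07% for their sum. The same held for mt-Nd3, at 11.7% alone and 5.28% with Gm28438, and for mt-Atp6, at 7.21% alone and 3.23% with Gm10925. It did not hold for mt-Co3, at 1.56% alone and 4.89% with Gm28437, nor for mt-Co1, at 6.15% alone and 6.86% with Gm29216. Over all 6 mice these 3 genes went the other way. The variation fell from 23.5% to 10.8% for mt-Co3 and from 19.2% to 14.8% for mt-Co1 with the copy added. For mt-Atp6 it rose from 5.97% to 16.6%. For mt-Co2 and mt-Nd3 it fell in both sets of mice. Gm10222 and Gm28439 were listed at 0 in every mouse, although their sequence lies wholly within mt-Nd4l and mt-Nd4. A level of mt-Co2, mt-Co3, mt-Atp6, mt-Nd3 or mt-Co1 on its own is thus uncertain, and their fold changes are also given with the counts of the copies added.

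**Figure D1:**
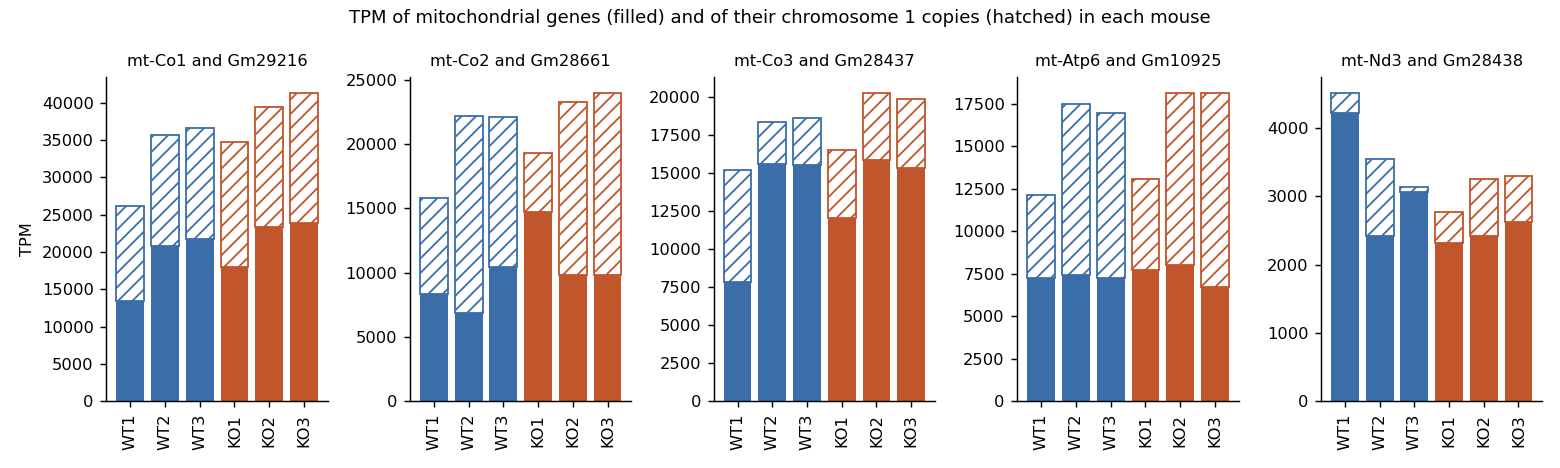
TPM (vertical axes, each from 0) of 5 mitochondrial genes (filled) and of their chromosome 1 copies (hatched, stacked on top) in each of the 6 mice, WT in blue and KO in orange. In the mice numbered 2 and 3, the filled part of mt-Co2 goes from 6890 to 10422 TPM and the whole bars from 22092 to 24008 TPM. Over all 6 mice the filled part goes from 6890 to 14719 TPM and the whole bars from 15820 to 24008 TPM.

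Mitochondrial mRNAs were among the most abundant transcripts of the tissue. Of the 50 genes with the highest mean TPM, 17 were members and 4 were chromosome 1 copies. The 13 mitochondrial members summed to 74990.2, 110106 and 111707 TPM in WT1, WT2 and WT3, which is 7.5%, 11% and 11.2% of all TPM. In KO1, KO2 and KO3 they summed to 93182, 116866 and 114749 TPM. The 84 nuclear structural genes summed to 58137, 29215 and 29356 TPM in WT and to 42817, 30417 and 29799 TPM in KO. In both genotypes the mouse numbered 1 was the lowest for the mitochondrial sum and the highest for the nuclear sum. The mitochondrial sum was 3.77 and 3.81 times the nuclear sum in WT2 and WT3 and 3.84 and 3.85 times in KO2 and KO3, but 1.29 times in WT1 and 2.18 times in KO1. The ratio did not differ between genotypes beyond the spread between mice, with 2.95 ± 1.44 in WT and 3.29 ± 0.964 in KO (SD, n = 3 each, exact permutation test, two-sided, p = 0.5). With 3 mice per genotype, 0.1 is the smallest p this test allows. With the copies added to the mitochondrial sum, the ratio was 5.28 and 5.15 in WT2 and WT3 and 5.32 and 5.48 in KO2 and KO3.

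**Figure D2:**
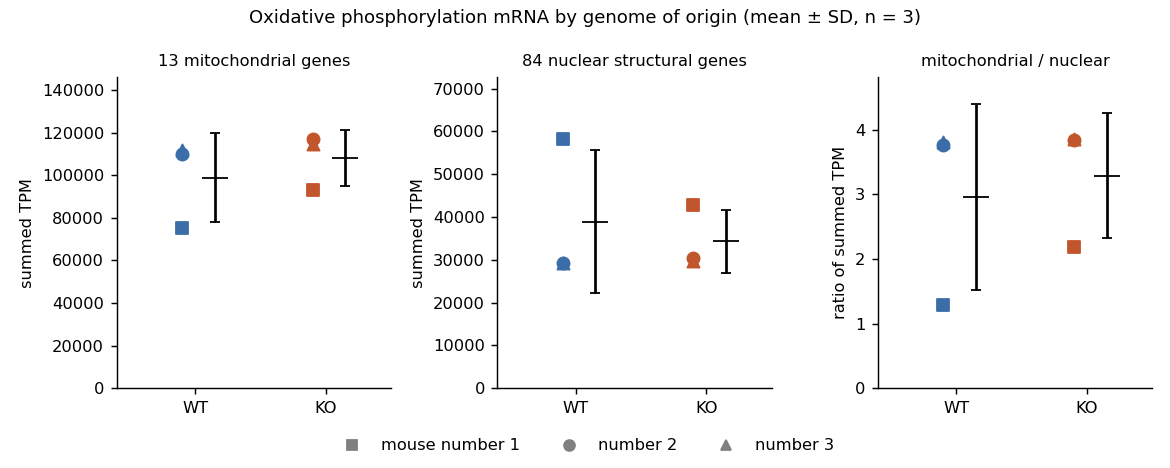
Summed TPM of the 13 mitochondrial members, summed TPM of the 84 nuclear structural genes and their ratio for each mouse, with mean ± SD (n = 3) beside the points. Shape gives the mouse number. The mice numbered 1 (squares) have the lowest mitochondrial sum, the highest nuclear sum and ratios of 1.29 (WT) and 2.18 (KO), while the other 4 mice lie between 3.77 and 3.85.

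Complex by complex, the nuclear and mitochondrial parts were weighted differently. Values in this paragraph are summed TPM of WT2 and WT3, the WT mice that lay close together. Complex I drew 35967 and 36425 TPM from its 7 mitochondrial genes and 8246 and 8303 TPM from its 36 nuclear structural genes. Complex IV drew 43323 and 47679 TPM from 3 mitochondrial genes and 9133 and 9077 TPM from 18 nuclear genes. Complex V drew 19344 and 15996 TPM from mt-Atp6 and mt-Atp8 and 7642 and 7792 TPM from 16 nuclear genes. In complex III, mt-Cytb, which encodes cytochrome b, stood at 11472 and 11608 TPM, and 9 nuclear genes summed to 3493 and 3481 TPM. The 4 genes of complex II, the succinate dehydrogenase that also serves the citric acid cycle, summed to only 662 and 664 TPM. Cycs, the gene of somatic cytochrome c, had 39 and 37.3 TPM.

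Among single nuclear subunits, 74 of the 84 had a mean above 100 TPM and 7 a mean under 20 TPM. Their median of 332 TPM compares with a median of 9.37 TPM over all genes that passed the filter. The highest in complex IV was Cox8a, a small subunit of the oxidase, with 2881, 1696 and 1587 TPM in WT1, WT2 and WT3 and 1731, 1568 and 1601 TPM in KO1, KO2 and KO3. Cox6a1 followed with 2142, 1259 and 1237 TPM in WT and 1562, 1304 and 1331 TPM in KO, next to Cox4i1, with 2154, 1258 and 1257 TPM in WT and 1593, 1294 and 1321 TPM in KO. For Cox6a1 and Cox4i1 all KO values lay within the WT range, and for Cox8a KO2 lay just below it. In complex V the highest was Atp5b, the catalytic beta subunit of the F1 head, with 1775, 1263 and 1294 TPM in WT and 1761, 1385 and 1355 TPM in KO. In complex III the highest was Uqcr11, a small accessory subunit, with 2629, 839 and 819 TPM in WT and 1404, 867 and 851 TPM in KO. In complex I, Ndufa3, an accessory subunit of the membrane arm, had the highest mean over the 6 mice, with 893, 424 and 424 TPM in WT and 641, 463 and 451 TPM in KO. Ndufb9, another accessory subunit, had 861, 431 and 443 TPM in WT and 558.5, 451 and 461 TPM in KO and was above Ndufa3 in WT2, WT3 and KO3, so their order depended on the mouse. For these genes the mouse numbered 1 was the highest of its genotype, and the other 4 mice were close to each other. In complex II, Sdha, the flavoprotein that oxidises succinate, went the other way, with 163, 244 and 242 TPM in WT and 201, 251 and 240 TPM in KO. Sdhb, the iron-sulfur subunit, had 398, 186 and 188 TPM in WT and 304, 194 and 189 TPM in KO, again highest in the mice numbered 1.

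The mice numbered 1 differed from the others of their genotype across nearly the whole nuclear set. Of 83 nuclear structural genes above 0 TPM in every mouse, 77 were higher in WT1 than the mean of WT2 and WT3, with a median log2 ratio of 0.91, and 33 of them by more than 2-fold. In KO1, 79 of the 83 were higher than the mean of KO2 and KO3, with a median of 0.53. By comparison, the medians were −0.14 and 0.04 over the 1748 genes with a mean above 100 TPM. Over the 19771 genes that passed the filter and were above 0 TPM in every mouse, they were −0.38 and −0.15. The log2 ratio of WT2 to WT3 had a median of −0.01 and that of KO2 to KO3 a median of 0.04 over the same 83 genes. Mitochondrial members went the opposite way, with medians of −0.66 in WT1 and −0.39 in KO1.

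The ratios went with the length of the transcript. Among the 63 nuclear structural genes with a major transcript under 1000 bases, the median ratio of WT1 to the other WT mice was 1.96, and it was 1.42 among the 20 longer ones. The largest ratio was 3.17 for Uqcr11, and Atp5mpl, a small complex V protein, reached 3.03. Sdha, whose major transcript has 2900 bases, had a ratio of 0.669. Cycs was an exception among the long transcripts, at 2.18 with 3123 bases. Spearman's rho between log2 ratio and length was −0.47 in WT1 and −0.37 in KO1 across the 83 genes. It was −0.63 and −0.53 across the 1748 genes above 100 TPM, so this dependence was not particular to the members. These are descriptions across genes of the same libraries, and genes are not independent replicates. In WT1, 37.4% of transcripts had no count, against 22.8% to 24.8% in the other mice. The part of RNA quality, tissue composition or sequencing in the difference of these mice was not tested.

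**Figure D3:**
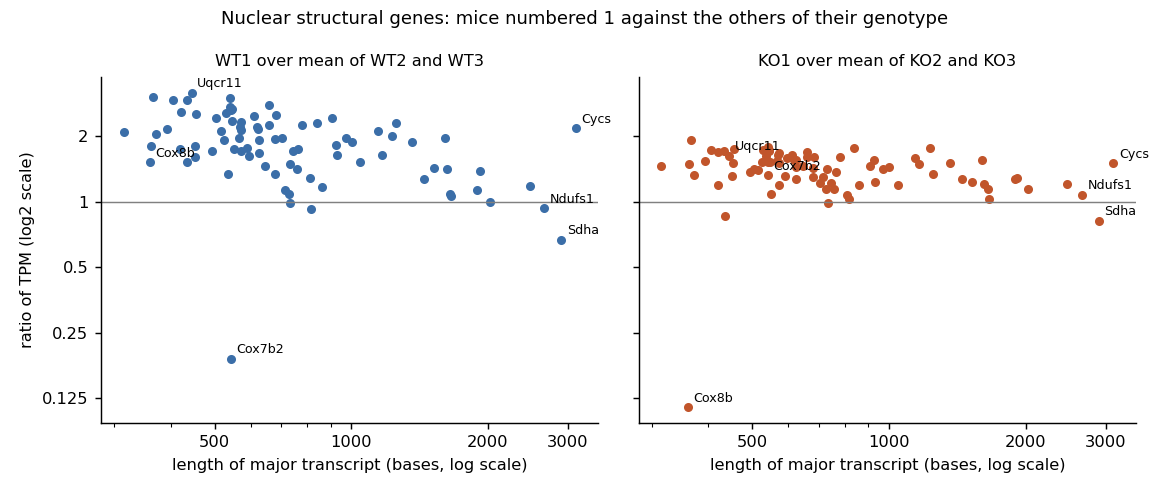
Ratio of TPM in the mouse numbered 1 to the mean of the other mice of its genotype (vertical axis, log2 scale) against the length of the major transcript (horizontal axis, log scale) for 83 nuclear structural genes, WT on the left and KO on the right. Most points lie above 1 and the highest belong to short transcripts, up to 3.17 for Uqcr11, while Sdha lies at 0.669 in WT1 and 0.818 in KO1. Cox7b2 and Cox8b, at or below 6.27 TPM, are the lowest points.

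Whether the KO hippocampus held different amounts of these mRNAs was asked for each gene with edgeR's quasi-likelihood test on the gene sums of estimated counts. A call required an adjusted p under 0.01 together with a change of more than 1.5-fold. No member was called, where 0% of the 20315 genes tested were called, and DESeq2 called no member either. The deleted gene Prmt9 was not called in this edgeR test either, at an adjusted p of 0.0327. Without the mice numbered 1 its adjusted p was 0.00114. The absence of calls with all mice therefore does not show that the levels of members were unchanged. An unadjusted p below 0.05 was reached by 0 members in edgeR, where 1.24% of all genes did so, and by 0 in DESeq2 and in limma. The lowest p among members was 0.0624. Fitted log2 fold changes of the 95 nuclear members tested ran from −0.77 to 0.94, with 89 below 0 and a median of −0.26, and those of the 13 mitochondrial members from −0.44 to 0.37 with a median of 0.12. The median over all genes was −0.01. The nuclear direction rested on WT1. Without this mouse, 90 of the 95 lay above 0 and the median was 0.25, and without both mice numbered 1 the median was 0.03 with 67 above 0. The mitochondrial median was 0.01 without WT1 and 0.07 without both.

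**Figure D4:**
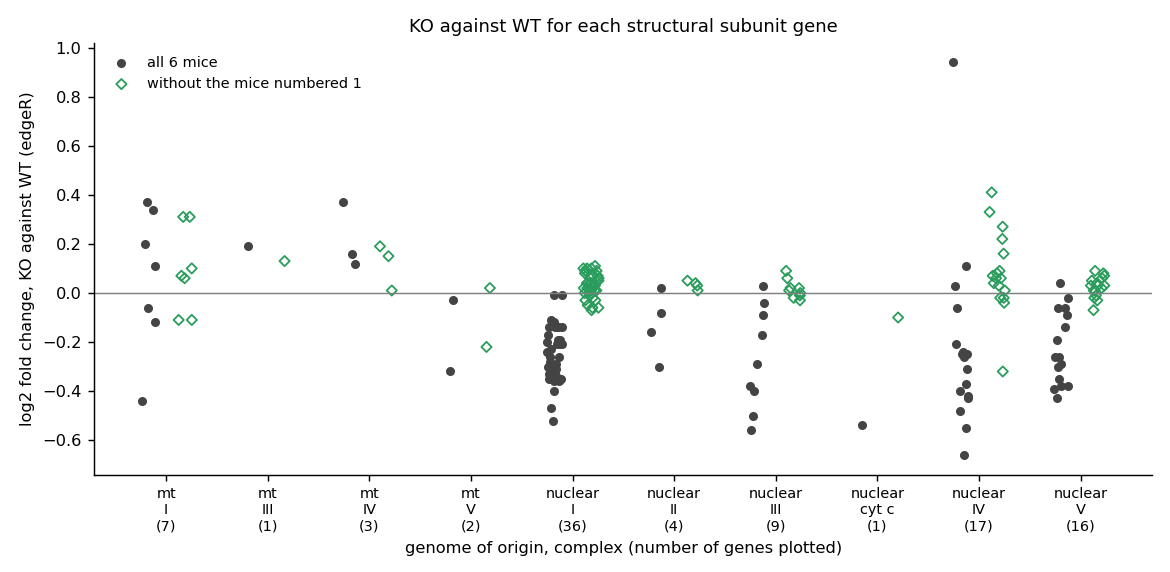
Log2 fold change of KO against WT from edgeR (vertical axis) for each structural subunit gene, grouped by genome of origin and complex, with all 6 mice (dots) and without the mice numbered 1 (diamonds). With all mice most nuclear genes lie below 0 (median −0.26 over 83 genes), and without the mice numbered 1 they gather around 0 (median 0.03).

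Sums by complex gave the same picture. Of the 10 sums of a complex by genome of origin, none separated WT from KO (exact permutation tests, two-sided, lowest p = 0.2, adjusted p = 1 over the 10 sums). The largest difference in log2 summed TPM was 0.28 for mt-Cytb, with 6218, 11472 and 11608 TPM in WT and 9221, 12529 and 12737 TPM in KO. Between mice of the same number it was 0.57, 0.13 and 0.13. The mitochondrial part of complex IV differed by 0.27, with 29658, 43323 and 47679 TPM in WT and 44779.8, 48967 and 48937 TPM in KO. Between mice of the same number it was 0.59, 0.18 and 0.04. Without the mice numbered 1 these differences were 0.13 and 0.11. The mitochondrial parts of complexes I and V also differed in one direction in every pair (KO relative to WT), by 0.18, 0.08 and 0.07 and by −0.30, −0.16 and −0.10, and so did the sum of all 13 mitochondrial members, by 0.31, 0.09 and 0.04. The permutation tests above do not use the pairs. The nuclear parts of complexes I, III, IV and V differed by −0.11, −0.18, −0.14 and −0.08 with all mice and by 0.03, 0.03, 0.05 and 0.04 without the mice numbered 1.

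Among the members, mt-Nd6 had the lowest p in edgeR with all mice, with the mouse number as a block and without the mice numbered 1. With all mice, the nuclear genes Cox4i2 and Cox7b2 had a lower p than mt-Nd5. Their log2 fold changes were −0.37 ± 0.23 and 0.94 ± 0.59 (SE, edgeR, unadjusted p = 0.158 and 0.162), and both stayed at or below 4 TPM. The complex I subunit genes mt-Nd5 (11742 to 13565, plus strand) and mt-Nd6 (13552 to 14070, the only one on the minus strand) overlap by 14 bases. The level of mt-Nd6 was 2144, 3363 and 3356 TPM in WT1, WT2 and WT3 and 3175, 4045 and 4261 TPM in KO1, KO2 and KO3. That of mt-Nd5 was 1189, 2599 and 2762 TPM in WT and 2036, 3272 and 3376 TPM in KO. For both, each KO mouse lay above the WT mouse of the same number, while KO1 lay below WT2 and WT3, so the groups overlapped. The log2 fold change was 0.34 ± 0.15 (SE) for mt-Nd6 and 0.37 ± 0.27 for mt-Nd5 (edgeR, unadjusted p = 0.0624 and 0.223, both with an adjusted p of 1). With the mouse number as a block it was 0.34 and 0.39, at an unadjusted p of 0.00197 and 0.00337 and an adjusted p of 0.79. Without the mice numbered 1 it was 0.31 for both, with an adjusted p of 0.096 for mt-Nd6 and 0.105 for mt-Nd5. The direction was the same with and without those mice, and neither gene passed the threshold in any of these fits. Whether reads were assigned by strand was not given in the sources used here. Without strand, the reads of genes on opposite strands cannot be told apart where their transcripts overlap. How far mt-Nd5 and mt-Nd6 shared reads was not tested, so they are not taken as separate observations.

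With the mouse number as a block, 5 members had an unadjusted p below 0.05, or 4.63%, against 5.75% of all genes. All 5 were mitochondrial, which is 38.5% of the 13 mitochondrial members, and 0 of the 95 nuclear members did so. They were mt-Nd5, mt-Nd6, mt-Co1 and mt-Cytb, higher in KO as 2.57% of all genes were, and mt-Atp8, lower as 3.17% of all genes were. Mitochondrial mRNAs arise from shared transcripts, so these 5 are not independent observations and the 38.5% is a description only. The gene mt-Nd1, a core subunit in the membrane arm of complex I, had 6545, 7391 and 7280 TPM in WT and 6251, 7560 and 7649 TPM in KO, with a log2 fold change of −0.06 ± 0.11 (SE) and of 0.06 without the mice numbered 1. For mt-Nd2, also in the membrane arm, the levels were 2559, 4572 and 4429 TPM in WT and 2683, 4202 and 4119 TPM in KO. For mt-Nd4, which shares an mRNA with mt-Nd4l, they were 3325, 6084 and 6010 TPM in WT and 4268, 6506 and 6420 TPM in KO. Without the mice numbered 1 the log2 fold changes of mt-Nd2 and mt-Nd4 were −0.11 and 0.10. For all of mt-Nd1, mt-Nd2 and mt-Nd4, the mice numbered 1 were the lowest of the 6. The gene mt-Nd4l had 2921, 9537 and 9516 TPM in WT and 5247, 10109 and 9709 TPM in KO, the widest span of the mitochondrial members without reads in a copy. The level of mt-Nd3 was 4222, 2422 and 3071 TPM in WT and 2314, 2417 and 2622 TPM in KO. Its log2 fold change of −0.44 ± 0.25 (SE) had an unadjusted p of 0.122 and an adjusted p of 1 in edgeR, and it was −0.11 without the mice numbered 1 and −0.30 with Gm28438 added.

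In complex IV, mt-Co1 had 13470, 20836 and 21735 TPM in WT and 18034, 23283 and 23828 TPM in KO. The log2 fold change was 0.16 ± 0.14 (SE), 0.15 without the mice numbered 1 and 0.17 with Gm29216 added. That of mt-Co2 was 0.37 ± 0.26 and became 0.10 once the counts of Gm28661 were added, and it was 0.09 without KO1 and 0.19 without both mice numbered 1. The level of mt-Co3 was 7820, 15597 and 15521 TPM in WT and 12027, 15888 and 15300 TPM in KO, a log2 fold change of 0.12 ± 0.21 that was 0.01 without the mice numbered 1 and 0.06 with Gm28437 added. In complex V, mt-Atp6, which forms the proton channel with the c ring, had 7249, 7403 and 7253 TPM in WT and 7720, 8032 and 6744 TPM in KO, a log2 fold change of −0.03 ± 0.15 that was 0.02 without the mice numbered 1 and 0.03 with Gm10925 added. The level of mt-Atp8 was 8961, 11942 and 8743 TPM in WT and 5486, 9226 and 8175 TPM in KO, lower in the KO mouse of each number but with overlapping groups. Its log2 fold change was −0.32 ± 0.22 (edgeR, adjusted p = 1), and −0.22 without the mice numbered 1. This transcript has 204 bases, and its effective length, by which kallisto divides, lay between 46.6 bases in WT1 and 62.9 bases in KO2.

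**Figure D5:**
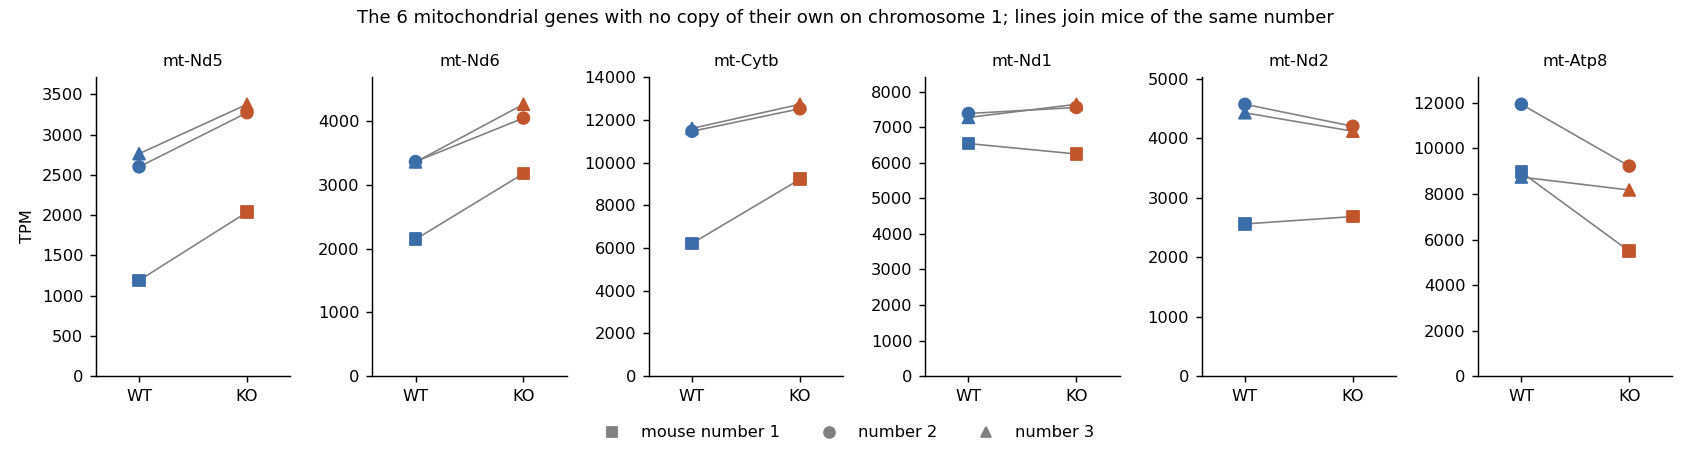
TPM (vertical axes, each from 0) of the 6 mitochondrial members with no copy of their own on chromosome 1, with lines that join WT and KO mice of the same number. The KO mouse is above the WT mouse in all 3 lines for mt-Nd5, mt-Nd6 and mt-Cytb and below in all 3 for mt-Atp8, and the mice numbered 1 (squares) are lowest in 5 of the 6 panels.

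The TPM of 13 of the 108 members tested was higher in the KO mouse of each number and that of 18 was lower, or 12% and 16.7%, where 20.7% and 8.04% of all genes did so. Groups did not overlap for 1 member in each direction, or 0.926% each, against 5.28% of all genes higher and 1.38% lower in KO. The first was Sdhc, a membrane anchor of complex II, with 92, 97 and 100 TPM in WT and 110, 108 and 105 TPM in KO. Its log2 fold change on counts was −0.08 ± 0.17 (SE), of the opposite sign. The other was Ndufb10, an accessory subunit of complex I, with 296, 294 and 302 TPM in WT and 282, 284 and 284 TPM in KO and a log2 fold change of −0.14 ± 0.13. Without the mice numbered 1, 16 of the 108 members had an unadjusted p below 0.05, or 14.8%, against 16.4% of all genes. They were 6 of the 13 mitochondrial members, or 46.2%, and 10 of the 95 nuclear members, or 10.5%. Of these members, 15 were higher in KO, 13.9% against 7.82% of all genes. The remaining 1 was lower, where 8.6% of all genes were, and the lowest adjusted p was 0.096. The mitochondrial members among the 16 are not independent observations here either. The nuclear gene with the lowest p in that fit was Ndufa4, a subunit of complex IV that was once assigned to complex I. It had 1953, 768 and 799 TPM in WT and 1464, 887 and 896 TPM in KO, a log2 fold change of 0.16 in the mice numbered 2 and 3 with an adjusted p of 0.143 and of −0.25 ± 0.51 (SE) in all mice.

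Several subunits exist as paralogs, of which some are known from heart and muscle, testis or hypoxic cells. In hippocampus, 1 paralog prevailed in most groups. Cox4i2, an isoform known for its link to low oxygen, made up 0.184%, 0.317% and 0.261% of the Cox4 sum in WT and 0.209%, 0.233% and 0.209% in KO. Cox6a2, the heart and muscle form, made up 0.935% ± 0.124 of its group in WT and 1.14% ± 0.0689 in KO (SD, n = 3 each, exact permutation test, two-sided, p = 0.1, adjusted p = 0.4 over 8 groups). Its level was 17.1, 13 and 12.3 TPM in WT and 19.1, 15.1 and 14.4 TPM in KO, so the shares separated the genotypes but the levels overlapped. Ndufa4l2, a paralog of Ndufa4 known as a target of hypoxia signalling, made up 0.667% ± 0.0948 in WT and 0.508% ± 0.0299 in KO (SD, n = 3 each, exact permutation test, two-sided, p = 0.1, adjusted p = 0.4). The shares were 0.63%, 0.775% and 0.597% in WT and 0.474%, 0.521% and 0.53% in KO, so they were separate without the mice numbered 1 as well. Its level was 12.4, 6 and 4.8 TPM in WT and 6.97, 4.64 and 4.77 TPM in KO, again overlapping. No other group separated the genotypes, the lowest p being 0.3.

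The less abundant forms differed in how strongly they were present. Cox6b2, the testis form, was at 17.1, 9.53 and 12.7 TPM in WT and 12.6, 12.9 and 16.3 TPM in KO, or 1.18% ± 0.297 and 1.49% ± 0.503 of its group. Cox7b2 stayed under 1 TPM in every mouse, and Cox8b, the heart and muscle form, between 0.558 and 6.27 TPM. In the Cox7a group the minor share was large, at 34.5% ± 3.2 in WT and 36.2% ± 0.822 in KO, since Cox7a2l, which joins complexes III and IV, had 527, 242 and 244 TPM in WT and 390, 256 and 256 TPM in KO. Cox7a1, the muscle form, had 16.2, 7.04 and 7.98 TPM in WT and 11.2, 7.51 and 7.04 TPM in KO. The c ring of complex V is made of 1 mature protein encoded by 3 genes. Atp5g1 had 883, 531 and 563 TPM in WT and 926, 593 and 569 TPM in KO, and Atp5g3 had 681, 596 and 609 TPM in WT and 797, 630 and 601 TPM in KO. Atp5g2 had 41.7, 28.4 and 27.4 TPM in WT and 37.7, 26.7 and 26.4 TPM in KO. Genes other than Atp5g1 made up 50.7% ± 4.97 of the c ring sum in WT and 50.8% ± 2.92 in KO.

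Nuclear members have copies as well, most of them processed pseudogenes. Of the 84 nuclear structural genes, 30 shared more than 10% of their 31-base words with other genes. A single gene outside the members that held more than 10% of a member's words and had a mean above 100 TPM was found for 4 of them. Gm10175, a transcribed pseudogene on chromosome 7, stood at 407, 248 and 255 TPM in WT and 379, 274 and 267 TPM in KO, well above Atp5g2, whose words it shared at 37.5%. Ndufb4c, a pseudogene on chromosome 15, stood at 616, 264 and 268 TPM in WT and 409.8, 272 and 272 TPM in KO. The complex I gene it resembles, Ndufb4, had 85.9, 43.8 and 43.4 TPM in WT and 64, 46.6 and 43.5 TPM in KO. Gm10053 on chromosome 19 had 262, 153 and 149 TPM in WT and 214, 149 and 137 TPM in KO and shared 26.2% of the words of Cycs. Gm12338 on chromosome 11 had 545, 478 and 449.7 TPM in WT and 519, 459 and 429.8 TPM in KO. The gene it resembles, Cox7c, had 1453, 487 and 483 TPM in WT and 730.2, 484 and 478 TPM in KO. Smaller shares were held by Gm10108, a second copy of Cycs on chromosome 5 with 7.53% of its words and 296, 90.1 and 86.6 TPM in WT and 192, 103 and 93.5 TPM in KO. Gm10221, also on chromosome 5, held 4.32% of the words of Atp5l, a small complex V subunit, with 377, 133 and 121 TPM in WT and 229, 148 and 121 TPM in KO. The levels of Atp5g2, Ndufb4, Cycs, Cox7c and Atp5l are uncertain to the extent that reads were divided with these loci.

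PRMT9 acts on a splicing factor, so the use of annotated transcripts within each member was compared as well. With edgeR's diffSpliceDGE and Simes adjustment, no one of the 82 members tested was called at an adjusted p below 0.01, where 0.162% of 13560 genes were called. No member had an unadjusted p below 0.05, and 1.67% of all genes did. The lowest were Cox7a1, Atp5k and Cox6c with an unadjusted p of 0.517, 0.59 and 0.597. With no change in any gene, 5% would be expected below 0.05, so this test was conservative with all mice. The absence of calls does not show that transcript use was unchanged. The share of the major transcript was followed in the 50 members with at least 2 transcripts at 5% or more of the gene's TPM. It did not overlap between the genotypes in 11, or 22%, against 9.02% of 10907 genes of the same kind. With shares of estimated counts it was 12, or 24%, against 9.1%. Shares moved one way in all 3 numbers in 25 members, or 50%, against 31.5% of all genes, and without the mice numbered 1 they stood apart in 33, or 66%, against 42.7%. A single share has an exact permutation p of 0.1 at the least, and the shares rest on kallisto's division of reads among overlapping transcripts. The background genes were not matched to the members by level, and the part of level in these percentages was not tested.

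The share differences were of a few percentage points. Ndufa10, an accessory subunit of complex I, had its major transcript Ndufa10-201 at 40.5%, 40.7% and 35% of TPM in WT and at 32.8%, 31.1% and 32.3% in KO. Cox5b, a zinc-binding subunit of complex IV, had Cox5b-205, annotated as a processed transcript, at 43.4%, 43.2% and 51.1% in WT and at 55.8%, 53.5% and 52.4% in KO. All KO mice were below all WT mice in the first and above them in the second. Ndufaf6, an assembly factor, had Ndufaf6-201 at 66.3%, 52.6% and 55.2% in WT and at 49.5%, 49.3% and 48.4% in KO. Cox7c-203 made up 92.3%, 92.2% and 91.3% of Cox7c in WT and 88.5%, 88.7% and 89% in KO, with little spread within either genotype. Ndufv2, which carries an iron-sulfur cluster of complex I, had 77.4%, 77.5% and 78% in WT and 81.9%, 79.2% and 79.7% in KO. These 5 were named after their values were seen, and the other 6 that did not overlap were Atp5j, Atp5j2, Ndufa4, Ndufa5, Ndufs6 and Ndufs8, with differences between −4.44 and 3.1 percentage points.

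The letters of the promoters of nuclear members were searched for motifs of factors known to act at such genes. RefSeq windows of 300 bases around the start of the gene (GRCm38.p6) were found for 75 of the nuclear member symbols. The NRF1 core TGCGCA, on either strand, was present in 18 of these genes, or 24%, against 8.79% of all 27025 genes with a window and 12.9% of genes that passed the count filter. The ETS core CCGGAAG was in 18, or 24%, against 9.93% and 15.5%. The YY1 core ATGGCGG was in 12, or 16%, against 4.69% and 7.19%. The 3 motifs share no whole core, and a match is a run of letters and not a bound site. Neither background was matched to the members by level. The window of the most abundant member for each motif, leaving out genes already shown, is given with the motif in capitals on the strand of the gene. They are Cox6a1 for NRF1 (chr5:115348909-115349208, minus strand), Cox8a for ETS (chr19:7217567-7217866, minus strand) and Atp5b for YY1 (chr10:128083057-128083356, plus strand). Cox6a1 also held the ETS core, which is left in small letters.
Cox6a1: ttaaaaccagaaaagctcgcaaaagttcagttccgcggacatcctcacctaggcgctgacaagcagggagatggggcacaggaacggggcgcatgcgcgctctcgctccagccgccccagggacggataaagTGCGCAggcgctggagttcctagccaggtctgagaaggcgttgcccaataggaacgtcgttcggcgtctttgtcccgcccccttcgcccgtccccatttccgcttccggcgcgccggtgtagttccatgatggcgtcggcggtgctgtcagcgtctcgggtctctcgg
Cox8a: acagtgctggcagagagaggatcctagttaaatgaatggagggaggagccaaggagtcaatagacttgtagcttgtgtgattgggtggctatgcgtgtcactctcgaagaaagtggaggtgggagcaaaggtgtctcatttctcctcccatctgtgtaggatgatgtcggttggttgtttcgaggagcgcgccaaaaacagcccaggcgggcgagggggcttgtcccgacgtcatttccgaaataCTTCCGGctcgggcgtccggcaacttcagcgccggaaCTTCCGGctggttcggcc
Atp5b: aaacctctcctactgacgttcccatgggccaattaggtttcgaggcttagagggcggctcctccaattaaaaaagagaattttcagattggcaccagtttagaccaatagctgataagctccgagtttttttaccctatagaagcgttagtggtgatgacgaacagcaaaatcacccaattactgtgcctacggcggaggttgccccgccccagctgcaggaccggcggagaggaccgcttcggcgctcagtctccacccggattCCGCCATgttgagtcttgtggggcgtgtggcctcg
Uqcr11, the member with the largest ratio in WT1, held the ETS core, and Sdha, which was lower in WT1, held the NRF1 core. Other genes with the NRF1 core had ratios in WT1 of 1.92 (Ndufs5), 1.81 (Cox5b) and 0.993 (Ndufb10). Whether a motif goes with the ratio was not tested.

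Other mitochondrial gene lists did not pass the test in any member. Among 24 genes of mitochondrial DNA maintenance and expression, 0 were called and 0 had an unadjusted p below 0.05, with a median log2 fold change of −0.01. The same counts of 0 held for the 38 assembly factors outside the rule that were tested (median −0.07), 11 biogenesis regulators (−0.02), 14 citric acid cycle genes (0.01), 11 carriers and channels (−0.06) and 78 mitochondrial ribosomal proteins (−0.14). Without the mice numbered 1 these medians were 0.00, 0.01, −0.01, 0.04, 0.01 and 0.03 in the same order, so those of the assembly factors, the carriers and channels and the ribosomal proteins changed sign. The biogenesis regulator with the lowest p was Gabpa, a subunit of an ETS factor, with 16.2, 20.9 and 21.8 TPM in WT and 13.8, 16.8 and 16.8 TPM in KO. Its log2 fold change was −0.14 ± 0.09 (SE, edgeR, adjusted p = 1), and each KO mouse was below the WT mouse of its number. Mterf3, which acts on mitochondrial transcription, had 27.6, 42.4 and 41.6 TPM in WT and 36.6, 47.8 and 44.5 TPM in KO, a log2 fold change of 0.14 ± 0.10. Cox11, a copper chaperone of complex IV, had 11.8, 15.3 and 14.1 TPM in WT and 14.8, 17.1 and 16.1 TPM in KO, a log2 fold change of 0.16 ± 0.11. The ribosomal proteins, encoded in the nucleus like the subunits, were also higher in the mice numbered 1, with a median log2 ratio of 0.60 in WT1 and 0.45 in KO1. The regulators went the other way, with medians of −0.63 and −0.34, as did the medians of −0.38 and −0.15 over the 19771 genes.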

How the data were processed

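Hippocampal polyA RNA of 3 WT and 3 KO mice was sequenced from stranded libraries, with samples grouped by their titles. The authors deposited kallisto's estimated counts and TPM for 118783 transcripts per sample and a table of gene TPM. The labels name STAR 2.7.1a, kallisto 0.46.0 and GRCm38, and the study's methods name another kallisto version. Of the transcripts, 116622 matched GENCODE M21 and the rest were left out. Estimated counts were summed over genes, rounded and tested with edgeR 4.0.16 (TMM, filterByExpr, quasi-likelihood F test, Benjamini-Hochberg). Sums, ratios and shares were compared by exact permutation tests. Calls needed an adjusted p under 0.01 together with a change of more than 1.5-fold, as in the study, whose tool, DESeq2, was run as an alternative, as was limma on log2(TPM + 1). Transcript usage was tested with diffSpliceDGE. The edgeR, DESeq2, limma and usage steps were tested on simulated data. Shared words were 31 bases long.

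The members and lists were chosen with earlier results of these data known. Named members were the mitochondrial genes, the 3 most abundant nuclear members of each complex, paralogs, those with the lowest p, and those whose groups did not overlap (in part summarised). Lists were mitochondrial DNA maintenance and expression, assembly factors, biogenesis regulators, citric acid cycle, carriers and channels, and mitochondrial ribosome. Marker lists described cell types. Deviations from the group means correlated between same-numbered mice, at 0.553, 0.415 and 0.383, above the 0.1 required, so the shared numbers in the titles were treated as pairs. Mice 2 and 3 correlated as strongly across numbers (0.417 and 0.394), so these values do not tell which of them belong together. Deviations within a genotype sum to 0, so outlying mice numbered 1 can by themselves make the other mice correlate. The block fits and the comparisons by number thus rest on the titles, which do not say what a number stands for. P-values measure the spread between these mice.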

Additional observations from a re-analysis of the deposited data

How the results depend on the processing

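No member was called at gene level or for transcript usage under any alternative run. Calls over all genes were 0 in the main test, 2 with DESeq2, and 1 each with an indicator for the mice numbered 1 and without both of them. The replicate block kept the number of member calls at 0 and changed no other call, with medians of 0.14 (mitochondrial) and −0.16 (nuclear). Leaving out both mice numbered 1 at gene level and adding the chromosome 1 copies were chosen after seeing the data. Leaving out 1 mouse at a time gave median log2 fold changes of 0.01 to 0.22 (mitochondrial) and −0.49 to 0.25 (nuclear). Without WT1 the log2 differences of the mitochondrial sum, the nuclear sum and their ratio turned from 0.15, −0.12 and 0.27 to −0.04, 0.21 and −0.25. Without mt-Atp8, whose transcript is under 300 bases, the mitochondrial complex V difference went from −0.19 to 0.03. Without both mice numbered 1, the Cox6a2 share differed by 0.101 instead of 0.205 percentage points. Major transcript shares stood apart in 11 members, in 33 without both mice numbered 1 and in 11 to 24 with 1 mouse left out (24 without WT1), and 25 moved one way in every pair of the replicate block. The cause of these shifts was not tested.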
